A study of Mus musculus with 4 samples.

Results

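The genes described here encode the subunits, activators and assembly factors of the proteasome, in cultured mouse dendritic cells. They were taken as the protein-coding genes whose symbol starts with Psma, Psmb, Psmc, Psmd, Psme, Psmf or Psmg and a digit, and 48 of the 13685 genes listed in the deposited tables met this rule. All 48 were listed in each table. Among them, 5 encode the inducible (immunoproteasome) subunits Psmb8, Psmb9, Psmb10, Psme1 and Psme2, and 31 encode the constitutive subunits of the core and its cap. The other 12 encode assembly chaperones, further activators, an inhibitor and a tissue-specific core subunit. Psmb11, the subunit of thymic epithelium, was listed in no table.

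Dendritic cells had been grown from the bone marrow of C57BL/6 mice aged 4 weeks, with IL-4 and GM-CSF at 10 ng/ml each for 7 days, and this held for all groups. RNA was sequenced from cells given CAF.CM that had first been held with an antibody to Wnt2, cells given CAF.CM, cells given the secreted ligand Wnt2, and cells in control medium. CAF.CM is the medium in which CAFs had been cultured, and CAF commonly stands for cancer-associated fibroblast. The series is about the targets of Wnt2 in these cells, so 3 comparisons follow: antibody + CAF.CM over CAF.CM, CAF.CM over control medium, and Wnt2 over control medium. Each group has 1 column of values, called a library here, although the series text speaks of triplicates. Without replicates, the differences below could not be set against a spread between cultures, and no p-value was computed for them.

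The proteasome degrades proteins tagged with ubiquitin. Its barrel-shaped 20S core is built from stacked rings of alpha and beta subunits, and a 19S cap binds the tagged protein, removes the ubiquitin, unfolds the chain and feeds it into the core. Interferon-exposed cells and many immune cells can build the core with Psmb8, Psmb9 and Psmb10 in place of the catalytic subunits Psmb5, Psmb6 and Psmb7, which gives the immunoproteasome and changes which peptides reach MHC class I. Psme1 and Psme2 form the PA28 ring, an activator that opens the core without ubiquitin. Dendritic cells use these peptides to prime CD8 T cells.

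In cells given CAF.CM, Psmb9 was 2.99-fold higher than in control medium and ranked first of the 48 genes. Of the other inducible genes, Psmb8 had a log2 ratio of 0.97, which passed 2-fold under other scalings of the libraries (1.02 to 1.04), and Psme1 one of 0.84, while Psmb10 was at -0.25, so the inducible subunits did not share 1 ratio. The standard partners were within 1.5-fold of control medium, at -0.11 for Psmb5, -0.37 for Psmb6 and 0.31 for Psmb7. Psmb6 and Psmb7 thus lay further from 0 than Psmb10. With Wnt2 alone, each of the 48 genes was within 1.5-fold of control medium, where 7.38% of all listed genes were higher and 8% lower by at least that much. All 5 inducible genes were below control medium, as were 39 of the 48 genes and 53% of all listed genes. With the antibody in CAF.CM, Psmb8 and Psmb9 stayed within 10 percent of CAF.CM alone.

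The libraries held 22791493 reads in listed genes for antibody + CAF.CM, 25225220 for CAF.CM, 154399766 for Wnt2 and 143071376 for control medium, so counting error was larger in the libraries with CAF.CM. Levels are the authors' normalized CPM, which scale each gene's reads by library size. Changes are log2 ratios of CPM with a prior count of 2 reads, and the brackets hold exact 95% binomial intervals that cover counting error only. The words rose and fell are kept for genes that differed by 2-fold or more. In bulk RNA, fewer cells of a type and less RNA per cell cannot be told apart. Over the 8 dendritic cell markers listed in every table, summed CPM was 1486 in antibody + CAF.CM, 1586 in CAF.CM, 582 in Wnt2 and 3182 in control medium. With CAF.CM over control medium, Itgax (CD11c; log2 ratio -4.22), Ciita (-2.31) and Cd74 (-1.13) fell, while the other 5 lay between -0.71 (H2-Aa) and 0.91 (Irf4). The sum over 10 of 10 macrophage or monocyte markers was 5659, 8517, 20126 and 28961 CPM in the same order, of which Lyz2 made up 4425, 6907, 18050 and 25763 CPM. For 2 of 8 fibroblast markers, the most that every table listed, the sum was 15.9, 13.5, 3.0 and 3.18 CPM. Of these, Dcn was at 13.9, 10.7, 1.01 and 0.509 CPM and Pdgfrb at 2.0, 2.8, 2.0 and 2.7 CPM. With CAF.CM over control medium, Dcn rose (log2 ratio 4.33), while Postn, which not every table listed, fell (-2.67). Of 8 neutrophil markers 2 were listed in every table, Mmp8 at 99.3, 140, 1489 and 544 CPM and S100a8 at 2.54, 4.11, 11.8 and 4.64 CPM, and 5 (S100a9, Mpo, Elane, Ngp and Camp) in none. Endothelial markers had 2 of 4, with sums of 32.4, 35.8, 35.9 and 18.98 CPM. No T cell or B cell marker was listed in all 3 tables. The part of these marker differences in the proteasome values was not tested.

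Promoter sequence is shown for the inducible genes and for 2 of the subunits they replace, because the results turn on these genes. The sequences are RefSeq's, on build GRCm38.p6, in windows of 250 bases before to 50 after the start site, and 40 of the 48 genes had a window. Psmb7 had none. Both strands were searched for a GAS-type motif (TTCNNNGAA), an ISRE-type motif (GAAA, any 2 bases, GAAA), the form bound by interferon regulatory factors, an ARE-type motif (TGACNNNGC), the form bound by NFE2L1 and NFE2L2, and a GC box (GGGCGG). Capitals mark the match, read 5′ to 3′ on the gene's strand. The first 3 stretches come from Psmb8 (chr17:34198087-34198116, plus strand, GAS-type), Psmb9 (chr17:34187368-34187397, minus strand, GC box) and Psme1 (chr14:55578493-55578522, plus strand, ISRE-type on the other strand, just past the start site).
Psmb8: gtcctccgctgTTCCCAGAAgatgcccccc
Psmb9: tgcgcgatgatgGGGCGGggcctcagtctg
Psme1: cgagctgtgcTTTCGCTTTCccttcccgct

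Longer stretches, kept clear of annotated exons, are given for Psmb10 (chr8:105938445-105938642, minus strand), Psme2 (chr14:55591114-55591351, minus strand), Psmb5 (chr14:54618023-54618245, minus strand) and Psmb6 (chr11:70525107-70525356, plus strand). Capitals mark GC boxes, which read CCGCCC on this strand, and ARE-type matches.
Psmb10: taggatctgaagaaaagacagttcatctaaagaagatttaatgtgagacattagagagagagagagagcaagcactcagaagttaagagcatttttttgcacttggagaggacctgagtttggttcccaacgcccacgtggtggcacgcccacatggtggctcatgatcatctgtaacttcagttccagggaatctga
Psme2: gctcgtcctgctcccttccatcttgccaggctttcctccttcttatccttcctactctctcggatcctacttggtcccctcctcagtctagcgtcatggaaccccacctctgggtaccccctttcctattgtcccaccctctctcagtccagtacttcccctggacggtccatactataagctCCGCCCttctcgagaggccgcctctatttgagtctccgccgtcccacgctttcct
Psmb5: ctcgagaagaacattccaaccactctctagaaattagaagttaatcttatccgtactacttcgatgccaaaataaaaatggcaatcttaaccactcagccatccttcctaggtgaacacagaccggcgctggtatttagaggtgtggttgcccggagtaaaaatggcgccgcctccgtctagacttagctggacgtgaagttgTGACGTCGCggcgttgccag
Psmb6: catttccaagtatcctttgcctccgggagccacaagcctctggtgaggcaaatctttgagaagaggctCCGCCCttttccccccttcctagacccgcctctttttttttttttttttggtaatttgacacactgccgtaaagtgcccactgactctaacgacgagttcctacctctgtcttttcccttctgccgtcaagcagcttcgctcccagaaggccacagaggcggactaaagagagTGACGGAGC

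The Psmb10 window held none of these motifs. Over all 32851 promoter windows of the same length, 3.44% held the ISRE-type motif, 8.3% the GAS-type, 12.4% the ARE-type and 35.7% the GC box. Proteasome counts are by gene, with a match in any window of the gene, while these shares are over single windows. Psme2, for instance, had another window besides the one shown. Of the 40 proteasome genes with a window, 5 held the ISRE-type motif (Psmb3, Psmd4, Psmd9, Psme1 and Psmg4) and 3 the GAS-type (Psmb8, Psmd2 and Psmg1). The ARE-type was in 6 (Psmb5, Psmb6, Psmc6, Psmd12, Psmd9 and Psme4), and 23 held a GC box. In these windows, matches of different motifs overlapped each other 1 time. The Psmb9 window is shared with Tap1, which encodes a chain of the transporter that carries peptides to MHC class I. The start sites of Psmb9 and Tap1 lie 226 bases apart on opposite strands, and 275 bases of their windows are the same (chr17:34187306-34187580).

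Psmb9 (ENSMUSG00000096727; chromosome 17, 34181987 to 34187764, minus strand, GRCm38) encodes the inducible subunit that takes the place of Psmb6. It was at 97.3 CPM in antibody + CAF.CM, 94.4 CPM in CAF.CM, 26.8 CPM in Wnt2 and 31.5 CPM in control medium. Both libraries with CAF.CM were thus high and both without it low. Psmb9 rose with CAF.CM, by 1.58 in log2 over control medium (1.51 to 1.65). The ratio was 0.04 for the antibody over CAF.CM (-0.04 to 0.13) and -0.23 for Wnt2 over control medium (-0.29 to -0.17). In the authors' deposited table, the adjusted p of Psmb9 for CAF.CM was 1.97e-12, from a dispersion that is not stated. Exons of Tap1 on the other strand overlap 5.79% of the exon bases of Psmb9, and Tap1 was at 276, 257, 51.1 and 59.5 CPM in the same order of libraries. Whether reads were counted by strand is not stated for these tables, and the part of these reads in the value was not tested.

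Psmb8 (ENSMUSG00000024338; chromosome 17, 34197721 to 34201454, plus strand) replaces Psmb5, the subunit that cuts after hydrophobic residues. It had 227 CPM in antibody + CAF.CM, 240 CPM in CAF.CM, 103 CPM in Wnt2 and 122 CPM in control medium. The order over the libraries was close to that of Psmb9, with the libraries with CAF.CM at the top. Its log2 ratio for CAF.CM over control medium was 0.97 (0.93 to 1.01), just under 2-fold, and it passed 2-fold where libraries were scaled by DESeq2 size factors (1.02), total reads (1.03) or TMM over protein-coding genes (1.04). The authors' deposited table gives Psmb8 an adjusted p of 2.29e-05 for this comparison. For the antibody over CAF.CM the ratio was -0.08 (-0.13 to -0.03), and for Wnt2 over control medium it was -0.25 (-0.28 to -0.22).

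Psmb10 (ENSMUSG00000031897; chromosome 8, 105935735 to 105938444, minus strand) replaces Psmb7, which cuts after basic residues. Its level was 22.2 CPM in antibody + CAF.CM, 31.5 CPM in CAF.CM, 26.1 CPM in Wnt2 and 37.5 CPM in control medium. Control medium held the highest value here and antibody + CAF.CM the lowest, unlike Psmb8 and Psmb9. The log2 ratio was -0.51 for the antibody over CAF.CM (-0.67 to -0.35), -0.25 for CAF.CM over control medium (-0.36 to -0.14) and -0.52 for Wnt2 over control medium (-0.58 to -0.46). Each interval lay below 0, and none reached 2-fold. Psmb10 was the lowest of the 48 genes in the Wnt2 comparison.

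**Figure D1:**
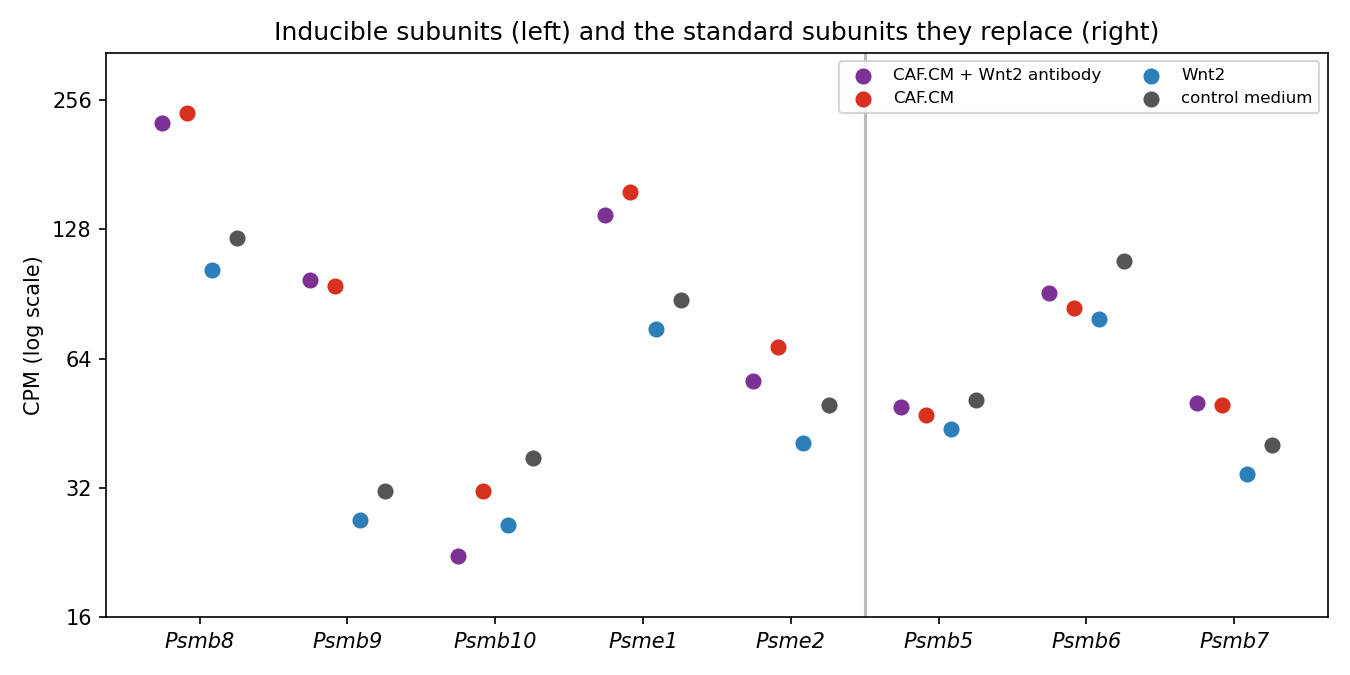
CPM (log scale) of the 5 inducible genes and of the 3 standard subunits that Psmb8, Psmb9 and Psmb10 replace, with 1 point for each library and no error bars. Psmb8, Psmb9, Psme1 and Psme2 sit higher in both libraries with CAF.CM than in Wnt2 and control medium, while Psmb10 is highest in control medium at 37.5 CPM.

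The standard subunits that these genes replace stayed within 2-fold in each comparison. Psmb5 (chromosome 14, 54614119 to 54618022, minus strand) was at 49.4 CPM in antibody + CAF.CM, 47.4 CPM in CAF.CM, 43.9 CPM in Wnt2 and 51.2 CPM in control medium. Psmb6, which cuts after acidic residues (chromosome 11, 70525367 to 70527858, plus strand), had 91.2 CPM, 83.9 CPM, 79.0 CPM and 108 CPM in the same order. Psmb7 (chromosome 2, 38588036 to 38644087, minus strand) had 50.5 CPM, 49.8 CPM, 34.4 CPM and 40.2 CPM in that order. All 3 were lowest in the Wnt2 library. For CAF.CM over control medium their log2 ratios were -0.11 for Psmb5 (-0.20 to -0.02), -0.37 for Psmb6 (-0.43 to -0.30) and 0.31 for Psmb7 (0.22 to 0.40). Psmb5 shares 74.0% of its 31-base words with 4 other genes, most of them with Gm3375, which no table lists, so its reads are uncertain. The exons of Psmb7 overlap those of Nek6 on the other strand over 11.8% of their bases. Nek6 was at 22.6 CPM in antibody + CAF.CM, 28.5 CPM in CAF.CM, 53.0 CPM in Wnt2 and 87.9 CPM in control medium.

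Setting each inducible subunit against the one it replaces gives a ratio that does not depend on how the libraries were scaled. Reads of Psmb9 over reads of Psmb6 came to 1.07 in antibody + CAF.CM (95% counting interval 1.01 to 1.13), 1.12 in CAF.CM (1.06 to 1.19), 0.340 in Wnt2 (0.328 to 0.352) and 0.292 in control medium (0.282 to 0.301). Both libraries with CAF.CM thus held more reads of Psmb9 than of Psmb6, and both others far fewer. The log2 change for CAF.CM over control medium was 1.95 (1.85 to 2.04), or 3.86-fold. It was 0.22 for Wnt2 over control medium (0.15 to 0.29), since the ratio of Psmb6 was more negative than that of Psmb9, and -0.08 for the antibody over CAF.CM (-0.20 to 0.04).

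Reads of Psmb8 over reads of Psmb5 came to 4.59 in antibody + CAF.CM, 5.06 in CAF.CM, 2.34 in Wnt2 and 2.39 in control medium. This ratio was 2.12-fold larger with CAF.CM than in control medium, a log2 change of 1.08 (0.99 to 1.18). Wnt2 and control medium differed by -0.03 (-0.08 to 0.03), within counting error, and the antibody and CAF.CM alone by -0.14 (-0.27 to -0.01). Psmb10 over Psmb7 ran the other way. Its ratio was 0.439 in antibody + CAF.CM, 0.633 in CAF.CM, 0.759 in Wnt2 and 0.933 in control medium. The log2 change was -0.53 for the antibody over CAF.CM (-0.72 to -0.33), -0.56 for CAF.CM over control medium (-0.70 to -0.42) and -0.30 for Wnt2 over control medium (-0.38 to -0.22). The 3 inducible core subunits therefore did not keep a fixed proportion to the subunits they replace.

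**Figure D2:**
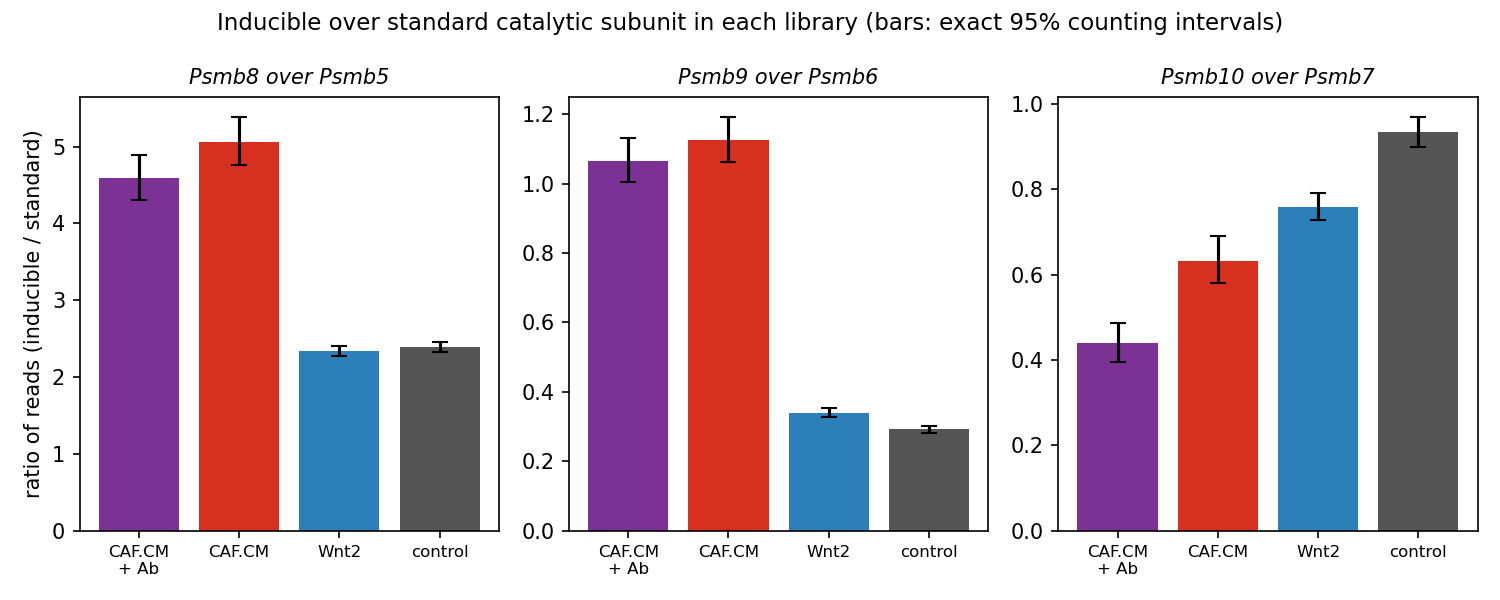
Reads of each inducible core subunit over reads of the standard subunit it replaces (linear scale) in each library. Error bars are 95% counting intervals. Psmb8/Psmb5 and Psmb9/Psmb6 are larger in the libraries with CAF.CM (5.06 and 1.12 in CAF.CM, against 2.39 and 0.292 in control medium), while Psmb10/Psmb7 is 0.633 in CAF.CM against 0.933 in control medium.

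Psme1 and Psme2 lie close together on chromosome 14 (ENSMUSG00000022216, 55578123 to 55581529, plus strand, and ENSMUSG00000079197, 55587441 to 55591113, minus strand). Psme1 was at 138 CPM in antibody + CAF.CM, 157 CPM in CAF.CM, 75.0 CPM in Wnt2 and 87.8 CPM in control medium. Psme2 was at 56.6 CPM, 68.1 CPM, 40.7 CPM and 49.96 CPM in the same order. Both were highest in CAF.CM and lowest in Wnt2. For CAF.CM over control medium the log2 ratio was 0.84 for Psme1 (0.78 to 0.89) and 0.45 for Psme2 (0.37 to 0.52), both under 2-fold. For the antibody over CAF.CM it was -0.18 for Psme1 (-0.25 to -0.11) and -0.27 for Psme2 (-0.37 to -0.16), and for Wnt2 over control medium -0.23 (-0.26 to -0.19) and -0.30 (-0.35 to -0.25). In the authors' deposited table, the adjusted p of Psme1 for CAF.CM was 3.58e-04. Reads of Psme1 over reads of Psme2 came to 2.44 in antibody + CAF.CM, 2.30 in CAF.CM, 1.84 in Wnt2 and 1.76 in control medium. Psme2 shares 66.2% of its words with Psme2b, a gene with nearly the same sequence, so reads may be split between them. With the reads of both genes added, the ratio was 0.39 for CAF.CM over control medium, -0.29 for the antibody over CAF.CM and -0.29 for Wnt2 over control medium.

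Compared per kilobase of the longest coding transcript, the range from highest to lowest of the 14 constitutive core genes was narrower in the libraries with CAF.CM. This range rests on Psmb6 and Psma2 alone, the highest and the lowest in every library. The highest was 3.60-fold above the lowest in antibody + CAF.CM, 3.71-fold in CAF.CM, 5.09-fold in Wnt2 and 6.30-fold in control medium. Psmb6 was the highest constitutive core gene in every library, at 114 CPM per kb in antibody + CAF.CM, 105 in CAF.CM, 98.98 in Wnt2 and 135 in control medium. Psmb9 had 72.0 CPM per kb in antibody + CAF.CM, 69.8 in CAF.CM, 19.9 in Wnt2 and 23.3 in control medium, so it stayed under Psmb6 on this scale in all 4. Psmb8 stood at 139 CPM per kb in antibody + CAF.CM, 147 in CAF.CM, 63.1 in Wnt2 and 75.0 in control medium, above Psmb5 (54.9, 52.7, 48.8 and 56.9) in each. Psmb10 had 16.9 CPM per kb in antibody + CAF.CM, 24.1 in CAF.CM, 19.9 in Wnt2 and 28.6 in control medium, under Psmb7 (43.6, 42.9, 29.7 and 34.6) in each. The median over the constitutive core genes was 61.7 CPM per kb in antibody + CAF.CM, 62.0 in CAF.CM, 45.3 in Wnt2 and 49.2 in control medium. For the 17 genes of the 19S cap, the medians were 24.9, 24.7, 23.1 and 25.3 CPM per kb in the same order. The length is that of 1 transcript, and which isoforms these cells make was not tested.

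**Figure D3:**
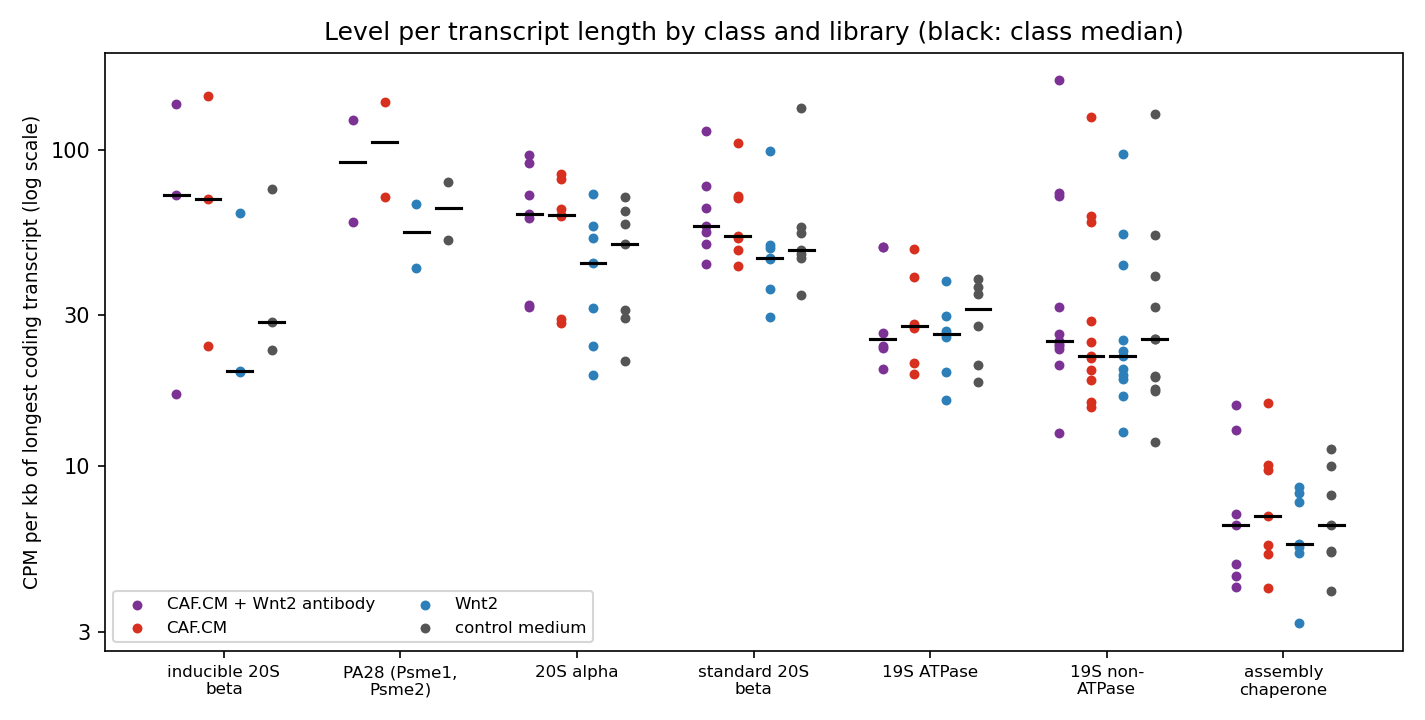
CPM per kilobase of transcript (log scale) of the proteasome genes by class, in each library, with 1 point per gene and a short bar at the median of each class. Of the 7 classes shown, assembly chaperones have the lowest median, and Psmb8 is the highest inducible gene in CAF.CM at 147 CPM per kb.

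Across the whole complex, 2 of 48 genes, Psmb9 and Psma5, rose at least 2-fold with CAF.CM over control medium, where 6.68% of all listed genes did. None was lower by 2-fold, against 8.69% of all listed genes. Ratios above 0 were found for 33 of 48 genes, against 46.7% of all genes, and for 38 of 48 where libraries were scaled by DESeq2 size factors (50% of all genes), total reads (51.2%) or TMM over protein-coding genes (51.8%). The median log2 ratio was 0.84 over the 5 inducible genes, 0.15 over the 31 constitutive genes and -0.04 over all listed genes, so the inducible genes lay 0.69 above the constitutive ones. At 1.5-fold, 7 of 48 were higher (13.8% of all genes) and 1 was lower (17.9%). In the authors' deposited table, 8 of 48 genes were higher and 1 was lower at an adjusted p below 0.05, where 13.9% and 18.8% of all genes were. The counts past 2-fold, past 1.5-fold and by adjusted p were thus near or under the shares over all genes.

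**Figure D4:**
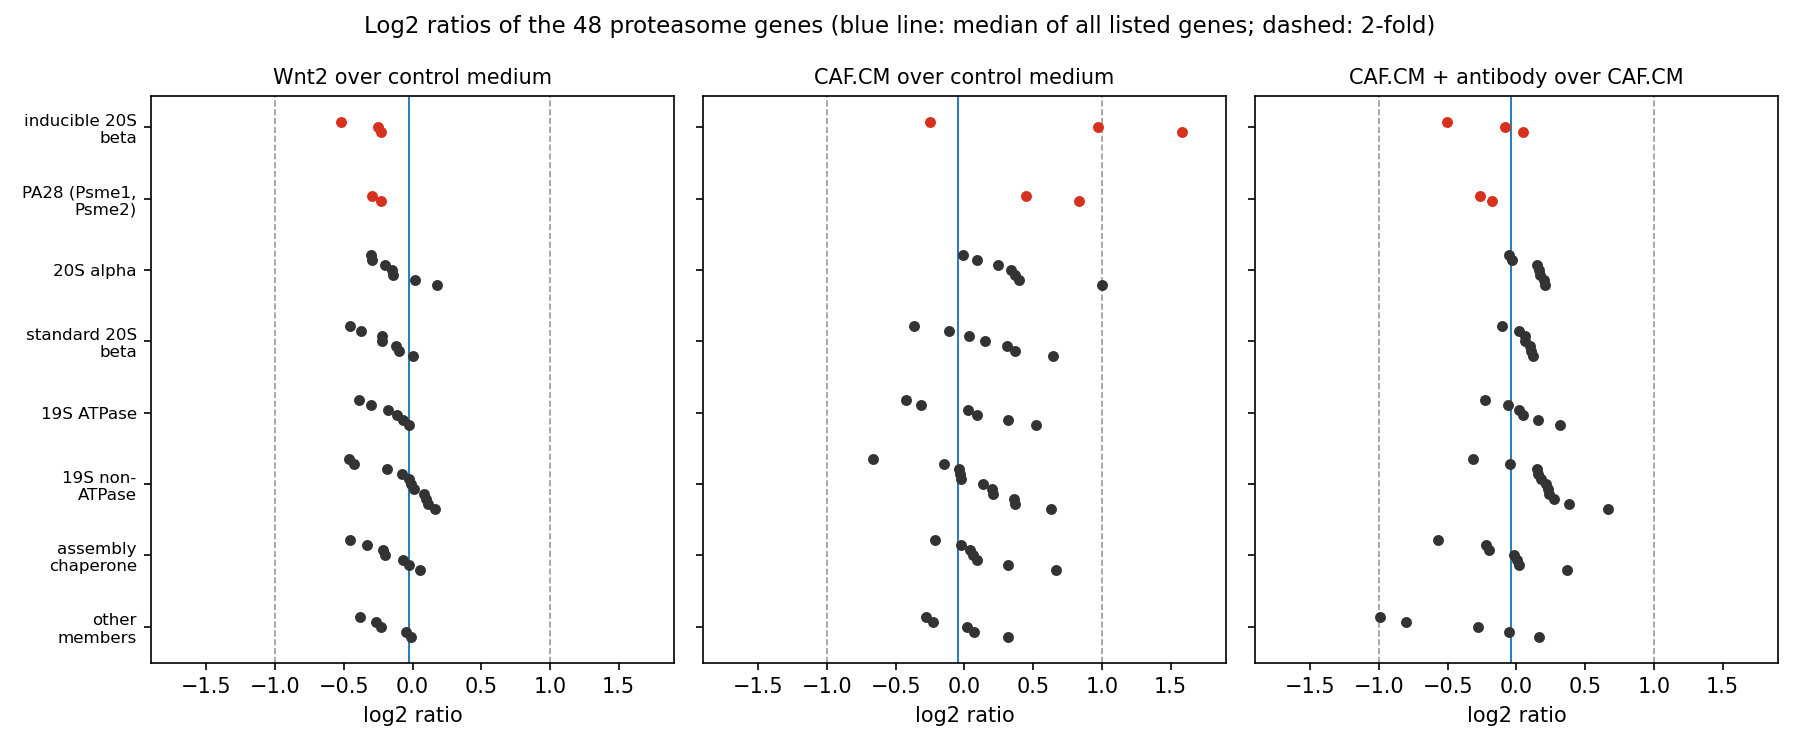
Log2 ratio of each proteasome gene in the 3 comparisons, by class, with 1 point per gene and dashed lines at 2-fold. Psmb9 (1.58) and Psma5 (1.00) are the genes past 2-fold with CAF.CM, and no gene is past it in the other comparisons.

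The alpha rings form the gate of the core. Psma5 (ENSMUSG00000068749; chromosome 3, 108256926 to 108279974, plus strand) had 89.1 CPM in antibody + CAF.CM, 77.1 CPM in CAF.CM, 39.0 CPM in Wnt2 and 38.5 CPM in control medium. Both libraries with CAF.CM were high and the others low, as for Psmb9, although Psma5 is no inducible subunit. It rose by 1.00 in log2 with CAF.CM (0.93 to 1.08), just past the 2-fold threshold, with Psmb8 at 0.97 just under it. The authors' deposited table gives Psma5 an adjusted p of 1.53e-05 there. It shares 64.02% of its words with 3 other genes, most of them with Gm8394, which no table lists, so its count is uncertain. The other 6 alpha genes lay between -0.01 (Psma3) and 0.40 (Psma2) in that comparison, and the median of all 7 was 0.34. Psma3 was at 92.0 CPM in antibody + CAF.CM, 83.0 CPM in CAF.CM, 68.2 CPM in Wnt2 and 83.7 CPM in control medium. Psma1 had the highest ratio of the complex with Wnt2, at 109, 96.9, 86.8 and 76.6 CPM in the same order, a ratio of 0.18 over control medium (0.14 to 0.22). Psma7 had the lowest ratio of the alpha genes with Wnt2, at 111, 96.7, 66.4 and 81.7 CPM. For the antibody over CAF.CM, alpha genes ran from -0.05 for Psma6 (65.4 CPM in antibody + CAF.CM, 67.7 CPM in CAF.CM, 45.7 CPM in Wnt2, 52.4 CPM in control medium) to 0.21 for Psma5. Psma8, an alpha subunit of the testis, had 26 reads (1.12 CPM) in antibody + CAF.CM, 60 reads (2.30 CPM) in CAF.CM, 319 reads (2.08 CPM) in Wnt2 and 383 reads (2.71 CPM) in control medium.

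Among the 7 standard beta genes, the log2 ratios for CAF.CM over control medium ran from -0.37 for Psmb6 to 0.65 for Psmb1, with a median of 0.15. Psmb1, a beta subunit without catalytic activity, was at 151 CPM in antibody + CAF.CM, 140 CPM in CAF.CM, 89.7 CPM in Wnt2 and 89.7 CPM in control medium. The 2 libraries with CAF.CM were high and the others alike, and the ratio for Wnt2 over control medium was 0.00 (-0.03 to 0.04), the highest of the class. Psmb2 was the lowest of the class for the antibody over CAF.CM, at 56.2 CPM in antibody + CAF.CM, 60.4 CPM in CAF.CM, 42.9 CPM in Wnt2 and 46.7 CPM in control medium. In the Wnt2 comparison 6 of 7 standard beta genes had ratios below 0, against 53% of all listed genes, with a median of -0.22.

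The 19S base holds 6 ATPases, which unfold the substrate. Psmc6 was the highest of them with CAF.CM over control medium, at 110 CPM in antibody + CAF.CM, 88.6 CPM in CAF.CM, 57.2 CPM in Wnt2 and 61.8 CPM in control medium, a ratio of 0.52 (0.45 to 0.59). Psmc3 was the lowest, at 47.9, 49.8, 54.4 and 67.0 CPM in the same order, a ratio of -0.43 (-0.51 to -0.34). The ring takes 1 copy of each ATPase, yet the ratios of their messages lay on both sides of 0. Psmc4 was the lowest with Wnt2 and with the antibody, at 34.5 CPM in antibody + CAF.CM, 40.5 CPM in CAF.CM, 38.6 CPM in Wnt2 and 50.5 CPM in control medium. Psmc1 was the ATPase gene nearest to control medium with Wnt2, at 78.1, 77.2, 61.0 and 62.0 CPM. All 6 had ratios below 0 in the Wnt2 comparison, against 53% of all listed genes, with a median of -0.15. The exception was that Psmc1 turned to 0.01 with TMM over protein-coding genes.

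The 11 non-ATPase genes of the cap include ubiquitin receptors, scaffold subunits and the deubiquitinase Psmd14. Psmd4, a ubiquitin receptor, was the highest of them with CAF.CM, at 127.7 CPM in antibody + CAF.CM, 108 CPM in CAF.CM, 75.7 CPM in Wnt2 and 69.9 CPM in control medium, a ratio of 0.63 over control medium (0.57 to 0.69). Psmd6, a lid subunit, was the lowest of all 48 genes in that comparison, at 17.7 CPM in antibody + CAF.CM, 22.1 CPM in CAF.CM, 30.9 CPM in Wnt2 and 35.1 CPM in control medium, a ratio of -0.67 (-0.79 to -0.54). Its order over the libraries was the reverse of that of Psmd4. Psmd14 was the lowest of the class with Wnt2, at 49.1 CPM, 44.2 CPM, 35.6 CPM and 48.9 CPM, a ratio of -0.46 (-0.51 to -0.41). Psmd3, a lid subunit, was the highest with Wnt2, at 56.1, 47.9, 41.6 and 37.2 CPM, a ratio of 0.16 (0.11 to 0.21). Psmd8, another lid subunit, was the highest cap gene per kilobase in each library, at 166 CPM per kb in antibody + CAF.CM, 127 in CAF.CM, 96.6 in Wnt2 and 130 in control medium. Its ratio was 0.38 for the antibody over CAF.CM (0.33 to 0.43) and -0.42 for Wnt2 over control medium (-0.45 to -0.40).

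Psmd11 (ENSMUSG00000017428; chromosome 11, 80428615 to 80473248, plus strand), a lid subunit that in worms and human cells has been described as limiting for assembly of the capped proteasome, was the gene with the largest ratio for the antibody over CAF.CM. It was at 69.5 CPM in antibody + CAF.CM, 43.7 CPM in CAF.CM, 36.5 CPM in Wnt2 and 34.1 CPM in control medium. The antibody library was the high one, and the other 3 lay within 10 CPM of each other. The ratio was 0.67 for the antibody over CAF.CM (0.56 to 0.78), under 2-fold, and 0.36 for CAF.CM over control medium (0.27 to 0.45). It was the single gene of the complex with an adjusted p below 0.05 in the authors' deposited table for this comparison, at 0.029, where 6.98% of all genes had one.

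Assembly chaperones had low levels, with a median of 6.52 CPM per kb in antibody + CAF.CM, 6.95 in CAF.CM, 5.67 in Wnt2 and 6.51 in control medium. Psmd10 (gankyrin), a chaperone of the 19S base, was the highest of the 7 with CAF.CM, at 22.4 CPM in antibody + CAF.CM, 22.7 CPM in CAF.CM, 12.3 CPM in Wnt2 and 14.3 CPM in control medium, a ratio of 0.67 over control medium (0.53 to 0.80). Psmd5, another chaperone of the base, was the highest for the antibody over CAF.CM, at 57.4, 44.3, 33.9 and 35.6 CPM, a ratio of 0.37 (0.26 to 0.49). Psmg4, a chaperone of the alpha ring, was the lowest of the class in each comparison, at 3.62 CPM in antibody + CAF.CM, 5.42 CPM in CAF.CM, 4.57 CPM in Wnt2 and 6.27 CPM in control medium. Psmg3, its partner, was at 3.97, 4.65, 4.92 and 4.73 CPM. Of the remaining activators, Psme4 (PA200) was at 142, 127, 120 and 121 CPM, and Psme3, which forms a nuclear activator ring, was within 0.06 of 0 in log2 in each comparison. Psmf1 (PI31), which binds the core, was at 20.8 CPM in antibody + CAF.CM, 25.3 CPM in CAF.CM, 17.4 CPM in Wnt2 and 20.3 CPM in control medium. Psme2b had 2.41, 4.26, 4.32 and 5.19 CPM in that order.

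With Wnt2 over control medium, 0 of 48 genes passed 2-fold in either direction, where 2.87% of all listed genes were higher and 2.93% lower. At 1.5-fold it was also 0 of 48, where 7.38% were higher and 8% lower. Ratios below 0 were nevertheless found for 39 of 48 genes, against 53% of all genes, and for 34 of 48 with TMM over protein-coding genes, against 49% of all genes there. The counting interval lay below 0 for 33 genes, above 0 for 5, and included 0 for 10. This was not counted over all listed genes, so it is no result about the complex. At the depth of these libraries a ratio of -0.07 (Psmd5, -0.12 to -0.01) was enough to leave 0. The median was -0.25 over the inducible genes, -0.12 over the constitutive genes and -0.02 over all listed genes. The most negative after Psmb10 were Psmd14 (-0.46), Psmg4 (-0.46), Psmb6 (-0.45) and Psmd8 (-0.42). No gene of the complex had an adjusted p below 0.05 in the authors' deposited table for Wnt2, where 15.4% of all genes had one.

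With the antibody in CAF.CM over CAF.CM alone, 0 of 48 genes passed 2-fold, where 1.02% of all listed genes were higher and 3.65% lower. Psma8, at -0.99, passed 2-fold lower with total reads (-1.01), with a prior count of 0.5 (-1.03) and by the authors' deposited log2 fold change (-1.04). Of the 31 constitutive genes, 24 had ratios above 0, with a median of 0.15, while 4 of the 5 inducible genes had ratios below 0, with a median of -0.18. In all, 29 of 48 genes were above 0, against 45.2% of all listed genes, whose median was -0.04. It was 27 of 48 with total reads, against 42.8% of all genes, and 31 of 48 with DESeq2 size factors (50% of all genes) or TMM over protein-coding genes (51.1%). The inducible median lay 0.33 below the constitutive one, where it had been 0.69 above it for CAF.CM over control medium; both comparisons use the CAF.CM library. At 1.5-fold, 1 gene was higher (Psmd11; 4.4% of all genes) and 2 were lower (10.7%), Psma8 at -0.99 (-1.76 to -0.35) and Psme2b at -0.80 (-1.31 to -0.34), both with few reads.

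Genes of interferon signalling and class I presentation, the setting in which the immunoproteasome works, were all listed (21 of 21). With CAF.CM over control medium 5 of the 21 rose (6.68% of all listed genes) and 0 fell (8.69%), and the median was 0.57. Those that rose most were Tap1, at 257 CPM in CAF.CM and 59.5 CPM in control medium (2.11), B2m, the light chain of class I, at 5075 and 1508 CPM (1.75), H2-K1, a class I heavy chain, at 3428 and 1145 CPM (1.58), and Ifnar2, a chain of the type I interferon receptor, at 358 and 137 CPM (1.38). For the antibody over CAF.CM, 0 of the 21 rose (1.02% of all listed genes) and 1 fell (3.65%), Stat2, a partner of Irf9 in interferon signalling, at 32.8 CPM in antibody + CAF.CM and 73.9 CPM in CAF.CM (-1.17), and the median was -0.15. In that comparison the genes that rose most with CAF.CM were at 0.10 (Tap1), 0.09 (B2m), 0.10 (H2-K1) and -0.23 (Ifnar2). The list did not share 1 ratio there, and Calr was its highest gene at 0.56. Under 2-fold but lower with the antibody were Irf8 (-0.86), Nlrc5 (-0.81), Irf9 (-0.73) and Irf1 (-0.63). For CAF.CM over control medium these were at -0.62 (Irf8), 0.84 (Nlrc5), 0.57 (Irf9) and 0.89 (Irf1). With Wnt2 over control medium 0 of the 21 passed 2-fold (2.87% of all listed genes were higher and 2.93% lower) and the median was -0.14.

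**Figure D5:**
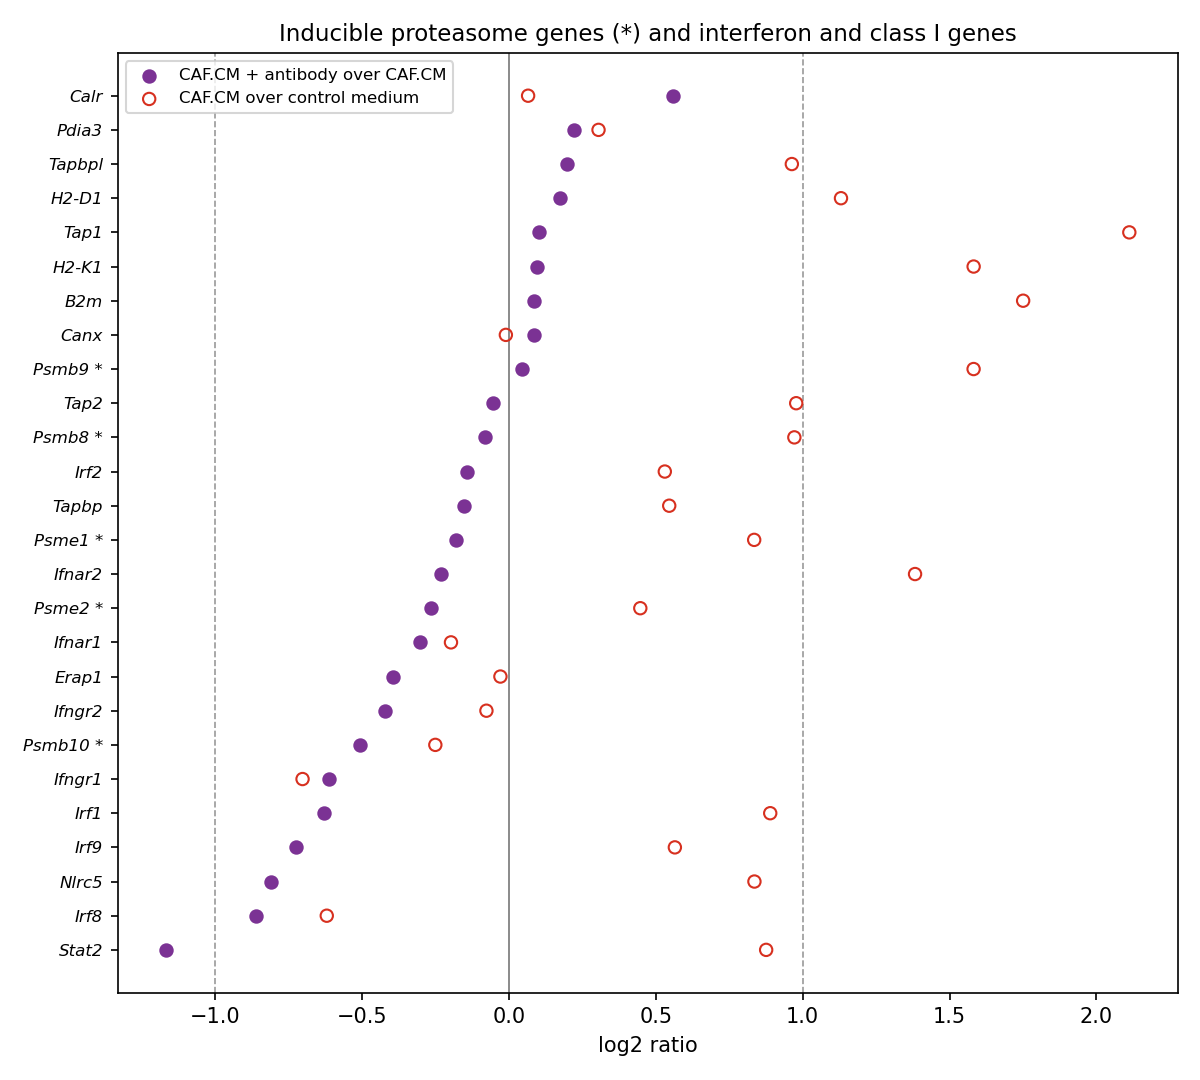
Log2 ratios of the inducible proteasome genes (starred) and of 21 genes of interferon signalling and class I presentation, for antibody + CAF.CM over CAF.CM (filled) and CAF.CM over control medium (open), with dashed lines at 2-fold. Tap1 is at 0.10 with the antibody and 2.11 with CAF.CM, Psmb9 is at 0.04 and 1.58, and Stat2 is at -1.17 with the antibody.

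Partners of the proteasome outside the subunit families were listed for 21 of 22, and none passed 2-fold in any comparison. Of all listed genes, 4.67% passed it in either direction for the antibody over CAF.CM. The share was 15.4% for CAF.CM over control medium and 5.8% for Wnt2 over control medium. With so few genes, the count is not read as a result about the list. Their median was 0.14 for the antibody over CAF.CM, -0.30 for CAF.CM over control medium and -0.09 for Wnt2 over control medium. Pomp, the maturation factor of the core, was at 49.1 CPM in antibody + CAF.CM, 36.6 CPM in CAF.CM, 33.4 CPM in Wnt2 and 34.1 CPM in control medium. The factor Nfe2l1, which drives proteasome genes when the proteasome is inhibited, was at 148, 141, 155 and 165 CPM in the same order. Ngly1, which processes Nfe2l1, was at 8.58, 9.14, 13.4 and 16.6 CPM, and Ddi2, the protease that cleaves it, at 104, 127, 242 and 211 CPM. Their ratios for CAF.CM over control medium were -0.86 and -0.73, both under 2-fold. Of the ubiquitin supply list 8 of 8 were listed and none passed 2-fold, beside the same shares of all listed genes. The medians were 0.16, 0.18 and -0.09 for the antibody, CAF.CM and Wnt2 comparisons.

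The protein-coding genes nearest in pattern to the median of Psmb8, Psmb9 and Psmb10 were found by Euclidean distance over the 3 log2 ratios, among 9736 genes listed in all tables with at least 200 reads in control medium and 5 CPM in 1 library. That median equals the ratios of Psmb8 itself in each comparison, so the genes are those nearest to Psmb8, while Psmb9 lay at a distance of 0.62 and Psmb10 at 1.32. They were Prdx4 (distance 0.039), AA467197 (0.043), Mfsd7a (0.084), Tspan13 (0.085) and Ifi35 (0.124). The ratios of Prdx4 were -0.04 for the antibody over CAF.CM, 0.98 for CAF.CM over control medium and -0.25 for Wnt2 over control medium. With 3 ratios over 4 libraries the likeness is a description of these libraries only.

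Summed over all 48 genes, the complex took 3394 CPM in antibody + CAF.CM, 3153 CPM in CAF.CM, 2346 CPM in Wnt2 and 2624 CPM in control medium. Of these sums the 5 inducible genes held 541 CPM, 590 CPM, 271 CPM and 329 CPM in that order.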

How the data were processed

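Per the labels' protocols, ribosomal RNA was removed from 1 ug of total RNA and libraries were made with a stranded kit. The submitters' processing notes name the builds GRCm38.p5 and mm10 and the tools edgeR, RSEM 1.2.29 and STAR 2.4.2a, without settings. The authors deposited CPM with 3 decimals in 1 table per comparison, with their log2 fold changes, log2 mean CPM, p-values and adjusted p-values, per the file headers. Each table lists part of the genes, so a gene missing from it is not shown to be unexpressed. The control medium and CAF.CM columns, present in 2 tables each, were identical over 12954 of 12954 and 12848 of 12848 shared genes.

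CPM values are whole multiples of 1 step per library (1 read), within 0.1 step for 99.97% of antibody + CAF.CM, 99.99% of CAF.CM, 99.91% of Wnt2 and 99.99% of control medium values, and reads were recovered from this step. A read was worth 0.0431, 0.0384, 0.00651 and 0.00706 CPM in that order. Log2 ratios used the authors' effective library sizes and a prior count of 2, and intervals are exact conditional binomial ones at 95% (Wald on log counts for ratios of 2 genes). No count test was run, because a group of 1 library has no spread to estimate. Reads without molecular identifiers are not independent molecules. Alternatives were DESeq2 1.42.0 size factors, total reads, edgeR 4.0.16 TMM over protein-coding genes (R 4.3.3), prior counts of 0.5 and 5, a 1.5-fold threshold, a minimum of 100 reads and the authors' own log2 fold changes. Shared words are stretches of 31 bases of a gene's longest transcript, coding or not, that also occur in the longest transcript of another gene (GENCODE M21). They are given as a percentage, with a cut at 20%. Besides Psma5, Psmb5 and Psme2, the cut was passed by Psma3 (26.5%), Psma4 (38.9%), Psmc1 (39.7%), Psmd2 (43.3%) and Psme2b (78.4%). The reads of these genes are uncertain too. The computations, tested on simulated data, used scipy 1.17.1, pandas 2.3.3, numpy 2.4.6 and matplotlib 3.10.9 under Python 3.11.15.

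The members and lists were chosen with earlier results of these data known. Values in every library are given for the inducible genes, Psmb5, Psmb6 and Psmb7, for members past 2-fold, and for the highest and lowest member of a class in a comparison. Genes of the other lists are named where they pass 2-fold, at most 4 a list, and some genes of these lists are not reported here. Psmd8, Nek6, Psme3, Pomp, Nfe2l1, Ngly1, Ddi2, S100a8, Lyz2, H2-Aa, Irf4, Pdgfrb, Calr, Irf8, Nlrc5, Irf9 and Irf1 are not taken by this rule: they were picked with their values in view.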

Additional observations from a re-analysis of the deposited data

How the results depend on the processing

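No called result changed direction under any alternative. The median log2 ratio of the inducible genes for CAF.CM over control medium, 0.84 as reported, was 0.90 with total reads, 0.90 with TMM over protein-coding genes and 0.97 over the 3 inducible core genes only. Over those 3 genes the median for the antibody over CAF.CM was -0.080, against -0.18 over all 5. With a 1.5-fold threshold, 7 genes were higher and 1 lower for CAF.CM over control medium, and 1 was higher and 2 were lower for the antibody over CAF.CM. The count of genes lower by 2-fold for the antibody was 1 (Psma8, with 26 reads in antibody + CAF.CM and 60 in CAF.CM) with total reads, with a prior count of 0.5 and with the authors' deposited log2 fold changes. The other 127 recomputed summary values stayed within counting error or 1.5 times of those reported, and so did 839 recomputed ratios of single genes, while 25 moved further. Scaling by DESeq2 size factors, total reads or TMM moved a gene's ratio by at most 0.068 in log2. The restriction to core genes and one to constitutive genes with under 20% shared words were chosen after seeing the data. A minimum of 100 reads left 47 of 48 genes in the antibody comparison and all 48 in the others. No paired analysis was possible because each group has 1 library and the columns carry no shared replicate numbers, and for the same reason no library could be left out. Depth limits the low genes most: in the libraries with CAF.CM, Psma8, Psme2b, Psmg2, Psmg3 and Psmg4 rest on 26 to 141 reads.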
